A study of Mus musculus with 12 samples.

Results

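Tex101, Ly6k, Prss50, Spink2, Adam2 and Adam3 encode proteins of germ cells that are anchored at the cell surface or are related to proteases and their inhibitors. They are described here across Sox3 mutant and wild-type mouse testes as 6 of 22180 genes measured. The members were listed by symbol, and where a gene had over 1 transcript cluster on the array, its cluster with the highest average level stood for it. All 6 were measured, and Ly6k alone had a second cluster. Because the list was drawn up with earlier results of these arrays in view, the tests below describe the members and are no independent support for their direction. Whole testes of C57BL/6N mice were taken at 2 weeks of age, and each was measured on 1 Affymetrix whole-transcript array. The groups were 3 testes with a knockout of the X-linked gene Sox3 (Sox3-KO, called KO), 3 testes in which Sox2 was knocked into the Sox3 locus (Sox3-Sox2KI, called KI), and 6 wild-type (WT) testes, of which WT 1 to WT 3 came from littermates of KI mice and WT 4 to WT 6 from littermates of KO mice. Both alleles were made by CRISPR/Cas9, neither is limited to 1 cell type by its label, and no animal was treated. Values are log2 expression values, so a difference of 1 is a 2-fold difference.

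TEX101 and LY6K belong to the LY6/uPAR family of small cysteine-rich proteins. Both are held at the cell surface by a glycosylphosphatidylinositol (GPI) anchor. In the mouse both are needed for the ADAM3 protein to reach the sperm surface, and sperm without ADAM3 fail to pass from the uterus into the oviduct. ADAM2 and ADAM3 are testis members of a family of membrane proteins with a metalloprotease and a disintegrin region, and they mature with the help of chaperones of the endoplasmic reticulum. PRSS50 belongs to the serine proteases and SPINK2 to the Kazal-type inhibitors of such proteases, and both are known from germ cells.

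The array medians lay between 5.74 and 5.82. Sox3 was 6.61 ± 0.04 in KO testes (SD, n = 3), 6.99 ± 0.26 in KI testes (SD, n = 3) and 7.28 ± 0.06 in WT testes (SD, n = 6), and the array labelled KI 1 (7.26) lay inside the WT range of 7.21 to 7.36. The positions of the Sox3 probes relative to the edited bases are not known here. The 95th percentile of 1088 olfactory receptor genes, which most tissues do not express, was 5.33 and is used as a rough background limit. Sox2, the gene knocked in, was at 4.51, 4.31 and 4.16 in KI 1, KI 2 and KI 3, at 4.02 to 4.22 in KO and at 3.81 to 4.22 in WT testes, so KI 1 was the highest array for it, although all 12 were under that limit. As a check of the tissue, all 13 measured Sertoli cell markers had a mean above the limit. Of the 9 measured epididymis markers 3 did (Lcn12, Cldn3 and Esr1), while the epididymal lipocalin genes Lcn5, Lcn8 and Lcn9 did not.

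Tex101 was lower in KO testes. It was at 8.24, 9.26 and 8.55 in KO 1, KO 2 and KO 3, and at 9.24, 9.71 and 9.61 in KI 1, KI 2 and KI 3. In WT it was at 9.95, 10.04 and 9.78 in the KI litters and at 9.51, 10.02 and 9.40 in the KO litters. All 3 KO testes lay below every WT testis, KO 2 by the least, and KI 1 was slightly below KO 2. Tex101 fell by 1.10 on the log2 scale in KO against WT testes, a 2.15-fold lower level (SE 0.21, 95% interval -1.56 to -0.65, limma adjusted p = 0.031). This change was the 134th lowest of the 22180. In a whole testis, fewer cells that make a transcript and less of it per cell cannot be told apart, and this holds for every result below. The call was lost without KO 1 (adjusted p = 0.123), without KO 3 (0.148) and without any of WT 1, WT 2, WT 3 and WT 5 (0.0594 to 0.0656). It was also lost against the 3 KO littermates alone, where the change was -0.96 (adjusted p = 0.155).

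The promoters of Tex101 and Prss50 are shown because these are the members that passed the test and have an entry in the RefSeq promoter table (GRCm38.p6), which matched 3 of the 6 members by symbol. Each window runs from 250 bases before to 50 bases after the gene's start, 5′ to 3′ on the gene's strand. Capitals mark ACAAT, the core of SOX motifs, AACNG, the core of MYB motifs, and CCAAT, the CCAAT box, on either strand.
Tex101, chr7:24672001-24672300, minus strand: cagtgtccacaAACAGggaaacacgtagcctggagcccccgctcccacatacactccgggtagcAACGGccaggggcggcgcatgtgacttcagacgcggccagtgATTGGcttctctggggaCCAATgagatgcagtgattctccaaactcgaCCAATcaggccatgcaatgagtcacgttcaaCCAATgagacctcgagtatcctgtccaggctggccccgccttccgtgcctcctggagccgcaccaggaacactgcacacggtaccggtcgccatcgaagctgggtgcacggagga
Prss50, chr9:110857714-110858013, plus strand: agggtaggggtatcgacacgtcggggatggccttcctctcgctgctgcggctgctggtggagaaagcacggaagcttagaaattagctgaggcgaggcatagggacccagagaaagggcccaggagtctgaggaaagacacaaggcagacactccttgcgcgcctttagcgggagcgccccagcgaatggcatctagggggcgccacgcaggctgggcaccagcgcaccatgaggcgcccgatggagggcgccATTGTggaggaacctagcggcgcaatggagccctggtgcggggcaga

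The Tex101 window holds 4 CCAAT boxes, at bases 107, 124, 155 and 186 of the window, the first of them on the opposite strand. At least 4 were found in 1.06% of 32544 promoter windows of this length, and at least 1 in 37.4%. This motif was searched after the sequence had been seen. The window also holds 2 MYB cores, at bases 12 and 65, as at least 51.2% of windows do, and no SOX core. The Prss50 window shown holds 1 SOX core, on the opposite strand at bases 254 to 258, no MYB core and no CCAAT box. These bases lie after the gene's start. A second Prss50 window, from base 110857717, overlaps the first and holds the same SOX core at bases 251 to 255. A SOX core was present in 30.8% of all windows. No match overlapped another. The 3 windows of Spink2, which overlap in part, hold 2, 4 and 5 MYB cores and no SOX core or CCAAT box. Also searched were the E-box CANNTG (1 in the Tex101 window, at base 82, 0 in the Prss50 window, present in 72.3% of all windows) and the CRE core TGACG (in neither window, and in 20.9% of all windows). These matches are letters in a window, not measured binding sites.

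Ly6k, the partner of Tex101 at the germ cell surface, was lower in KO testes as well. It was at 7.004, 7.65 and 6.97 in KO 1, KO 2 and KO 3, and at 7.52, 8.07 and 8.01 in KI 1, KI 2 and KI 3. The WT values were 8.10, 8.21 and 8.07 in the KI litters and 7.81, 8.20 and 7.57 in the KO litters. KO 2 lay inside the WT range, just above WT 6, and the other 2 KO testes lay below all WT testes. Ly6k fell by 0.79 in KO against WT testes, a 1.72-fold lower level (SE 0.18, 95% interval -1.19 to -0.39, limma adjusted p = 0.0372). The call was lost without KO 1 (adjusted p = 0.149), KO 3 (0.173) or any of WT 1, WT 2, WT 3 and WT 5 (0.0702 to 0.0753), and with KO littermates as the sole controls it was -0.65 (adjusted p = 0.197). The second Ly6k cluster had means of 4.94 in KO, 4.75 in KI and 4.79 in WT testes, under the background limit, and with the mean of both clusters the Ly6k change was -0.32 (adjusted p = 0.112).

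Prss50 encodes a testis member of the serine protease family whose catalytic serine is replaced by threonine. It had the narrowest WT range of the members. It was at 8.18, 8.89 and 8.49 in KO 1, KO 2 and KO 3, against 9.09, 9.28 and 9.34 in KI 1, KI 2 and KI 3. WT testes lay at 9.45, 9.25 and 9.29 in the KI litters and at 9.23, 9.25 and 9.36 in the KO litters, a span of 0.22 over all 6. All 3 KO testes lay below every WT and every KI testis. Prss50 fell by 0.78 in KO against WT testes, a 1.72-fold lower level (SE 0.12, 95% interval -1.05 to -0.51, limma adjusted p = 0.0234). Set against KO littermates only, it differed by -0.76 (95% interval -1.08 to -0.43) but did not pass (adjusted p = 0.136). The call was also lost without KO 1 (adjusted p = 0.0971), KO 3 (0.11), WT 1 (0.0535), WT 3 (0.0571) or WT 5 (0.0508).

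Spink2, a protease inhibitor of the acrosome, the vesicle of enzymes at the sperm head, did not pass in any comparison. Its KO values were 4.90, 5.57 and 4.92 in KO 1, KO 2 and KO 3. The KI values were 5.26, 5.99 and 5.85, and the WT values were 6.21, 6.25 and 5.93 in the KI litters and 5.29, 6.66 and 4.80 in the KO litters. All 3 KO testes lay inside the WT range, since WT 6 was lower than any of them. The KO difference from WT was -0.73 (95% interval -1.48 to 0.02, adjusted p = 0.221). KO 1, KO 3, KI 1, WT 4 and WT 6 were under the background limit.

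Adam2 encodes fertilin beta, a partner of other ADAM proteins on the way to the sperm surface. It had the largest KO difference of the members and the widest spread in WT. It was at 4.08, 6.21 and 4.81 in KO 1, KO 2 and KO 3, and at 6.40, 7.25 and 7.46 in KI 1, KI 2 and KI 3. In WT it was at 7.93, 8.25 and 7.30 in the KI litters and at 5.92, 8.42 and 5.68 in the KO litters. KO 2 lay above WT 4 and WT 6, and all 3 KO testes lay below every KI testis. The KO difference from WT was -2.21, the eighth lowest of the 22180, with a wide interval of -3.59 to -0.84, and it did not pass (SE 0.64, adjusted p = 0.0614). It passed without WT 4 (-2.48, adjusted p = 0.0363), without WT 6 (-2.53, 0.0258) and without KO 2 (-2.80, 0.0266). Leaving out KO 1 (-1.74, adjusted p = 0.222), KO 3 (-2.10, 0.206) or any of WT 1, WT 2, WT 3 and WT 5 (0.102 to 0.113) moved it further from passing. KO 1 and KO 3 were under the background limit.

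Adam3, which encodes the sperm surface protein that depends on TEX101 and LY6K in the mouse, was close to background in all groups. It was at 3.94, 4.81 and 5.11 in KO 1, KO 2 and KO 3, at 4.88, 5.16 and 5.01 in KI 1, KI 2 and KI 3, and between 4.78 and 5.94 in WT with a median of 5.20. Only WT 2 (5.94) and WT 5 (5.67) exceeded the limit, and 2 of the 3 KO testes lay inside the WT range. The KO difference from WT was -0.67 (95% interval -1.25 to -0.08, adjusted p = 0.154), and without KO 1 it was -0.32 (adjusted p = 0.515).

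**Figure D1:**
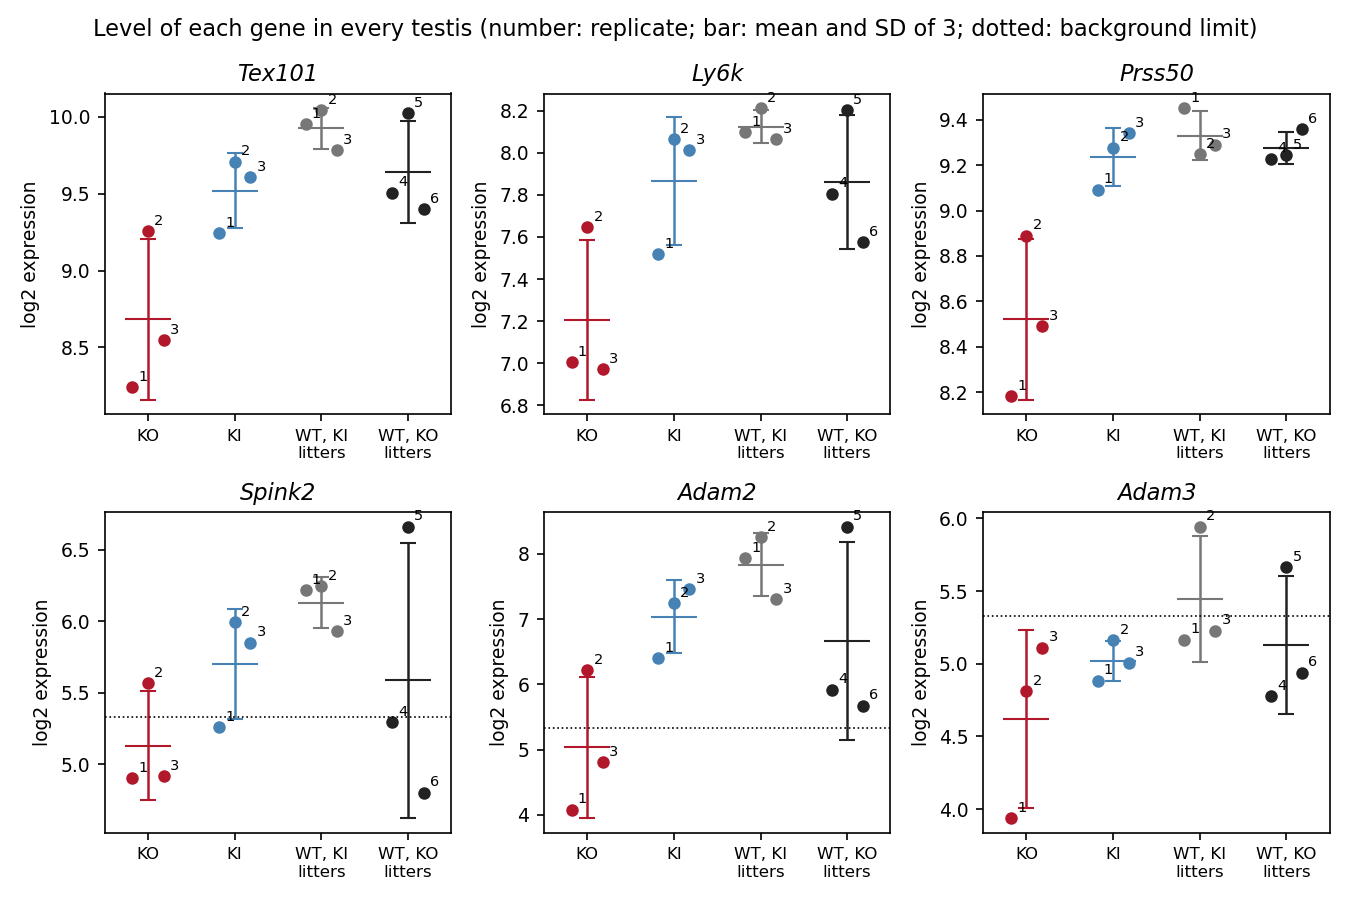
Log2 expression of each of the 6 genes (y axis, its own scale in each panel) in every testis, grouped on the x axis as KO, KI, WT of KI litters and WT of KO litters. Points are arrays numbered by replicate, bars give the mean and SD of 3 arrays, and the dotted line is the background limit of 5.33. KO 1 and KO 3 sit below all WT points for Tex101, Ly6k, Prss50 and Adam2, while WT 4 and WT 6 sit low for every gene but Prss50.

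As a group, 3 of the 6 genes passed as lower in KO against WT testes and all 6 differences were negative, with a median of -0.78. Over all genes 2.34% passed as lower, 2.52% as higher and 4.86% in either direction, and the median difference was 0.04. All 3 KO testes lay below all 6 WT testes for 2 of the 6, Tex101 and Prss50, and this held for 4.59% of all genes. The same 2 genes did not overlap with the KO littermates, where 7.13% of all genes lay below in this way. Since the genes were listed with the KO result known, these shares are given for scale only.

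In KI testes none of the 6 passed against all WT testes, and for 0 of the 6 did all KI testes lie below all WT testes (1.31% of all genes did, and 3.1% did not overlap in either direction). By limma 0 of the 6 had an unadjusted p under 0.05, and over all genes 0% passed, with 1163 genes at an unadjusted p under 0.05. All 6 KI differences were negative, from -0.27 for Adam3 and Tex101 to -0.07 for Prss50. Among the 22180 genes these were the 640th, 671st and 6273rd lowest. The 95% interval was -0.72 to 0.19 for Tex101, -0.53 to 0.27 for Ly6k and -0.34 to 0.20 for Prss50. The KO estimates of these genes (-1.10, -0.79 and -0.78) lie outside the KI intervals, but they have intervals of their own. Those of Tex101 (-1.56 to -0.65) and Ly6k (-1.19 to -0.39) overlap the KI intervals, and that of Prss50 (-1.05 to -0.51) does not. A KI change within the KO interval is thus not excluded for Tex101 and Ly6k. For Adam2 the interval of -1.59 to 1.16 is too wide to exclude large differences in either direction. KI 1 was the lowest KI testis for all 6 genes. Against the KI littermates alone, the differences ran from -0.79 for Adam2 to -0.09 for Prss50 and none passed (adjusted p = 0.93 to 0.95). That of Adam2 was the 11th lowest of all genes and that of Prss50 the 5184th. All 3 KI testes lay below all 3 littermates for Tex101 and Adam3, 2 of the 6 genes, where 6.07% of all genes did so.

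Set against KO testes, KI testes had higher values of all 6 genes, but none passed. The differences were 0.84 for Tex101 (95% interval 0.31 to 1.36, adjusted p = 0.152), 0.66 for Ly6k (0.20 to 1.12, adjusted p = 0.172), 0.72 for Prss50 (0.41 to 1.03, adjusted p = 0.133) and 2.00 for Adam2 (0.41 to 3.59, adjusted p = 0.2). These 4 had an unadjusted p under 0.05, as had 3993 of all genes, of which limma passed 0%. For Spink2 and Adam3 the differences were 0.57 and 0.40, and without KO 1 that of Adam3 was 0.056. All 3 KO testes lay below all 3 KI testes for Prss50 and Adam2, 2 of the 6 genes, where 9.56% of all genes did so and 22.1% did not overlap in either direction. Without KO 2 the differences of Tex101 (1.13, adjusted p = 0.0307), Ly6k (0.88, 0.0437) and Prss50 (0.90, 0.0153) passed, as did 721 of the 22180 genes. Of the 6 fits that left out 1 KO or KI array, these 3 genes passed only in this 1. In the others the adjusted p reached 0.358, 0.395 and 0.343. KO and KI are compared here with the same 6 WT testes, and KI also with KO directly, so these comparisons share arrays. By the labels KO and KI testes come from different litters, so genotype and litter origin cannot be told apart in KI against KO.

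**Figure D2:**
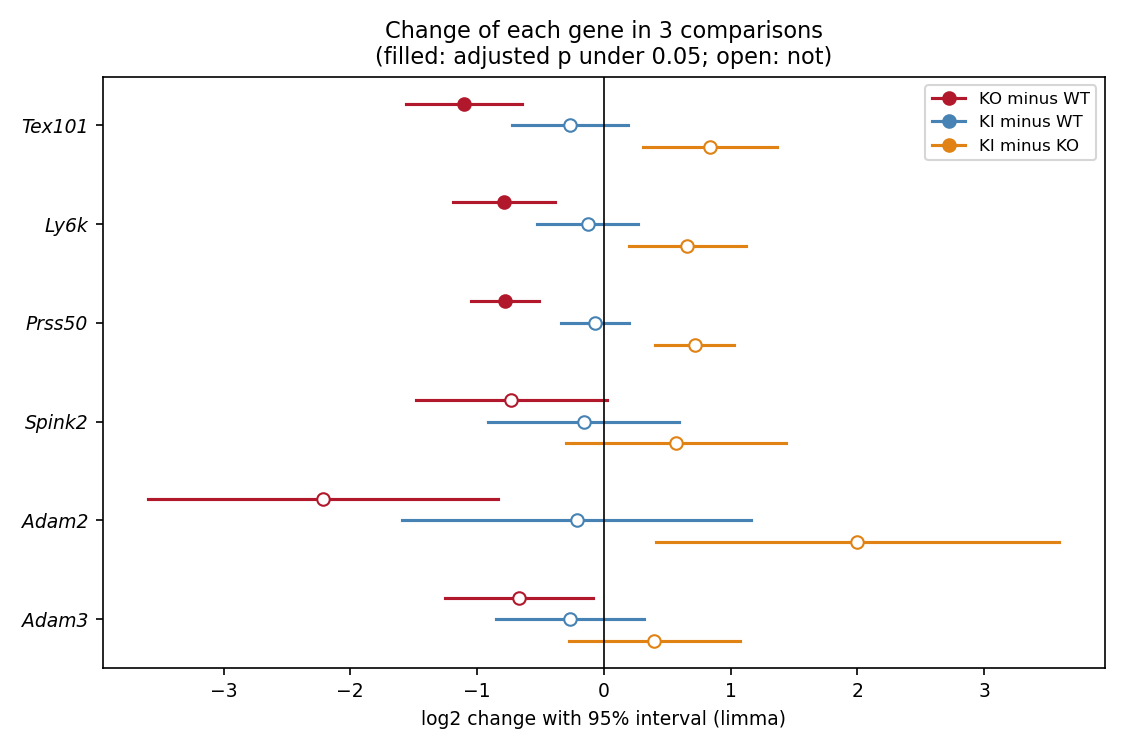
Log2 change (x axis) of each gene (y axis) for KO minus WT, KI minus WT and KI minus KO, with 95% intervals from limma. Filled points have an adjusted p under 0.05. Tex101, Ly6k and Prss50 are filled for KO minus WT, and every KI minus WT interval includes 0.

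Litter origin is the batch that the labels give. Of the WT testes, those of the KI litters were higher than those of the KO litters for all 6 genes, by 0.05 (Prss50) to 1.16 (Adam2), and none passed (adjusted p = 0.891 to 0.98). These sizes rest on single arrays, of the KI litters as well as of the KO litters. The litter difference of Adam2 was 0.66 without WT 6 and 2.03 without WT 5, that of Spink2 0.15 and 1.08, that of Adam3 0.22 and 0.59, that of Tex101 0.16 and 0.47 and that of Ly6k 0.12 and 0.43. Without WT 2 that of Adam3 was 0.069, and without WT 1 that of Prss50 was -0.0083. Set within litters, KO differences from littermates ran from -1.64 for Adam2 to -0.46 for Spink2, and 0 of the 6 passed where 0.00902% of all genes did, and 0.00451% as lower. At an unadjusted p under 0.05 the count was 4 of 6, and 3480 over all genes. The KI difference minus the KO difference, each within its litters, was largest relative to its error for Prss50, at 0.66 (95% interval 0.20 to 1.12, adjusted p = 0.847). It was 0.55 for Tex101 (-0.18 to 1.29), 0.40 for Ly6k (-0.25 to 1.04) and 0.84 for Adam2 (-1.28 to 2.96). For Adam3 it was 0.08 (-0.88 to 1.04) and for Spink2 0.03 (-1.17 to 1.22), and none of the 6 passed.

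The spread among WT testes was shared by most of these genes. WT 4 and WT 6, both littermates of KO mice, were the lowest 2 of the 6 WT testes for Tex101, Ly6k, Spink2, Adam2 and Adam3. For Prss50, WT 4 was the lowest at 9.23 and WT 6 was second highest at 9.36. The same arrays were low in meiotic markers. The 19 measured markers of pachytene and later meiosis, Adam2 left out, averaged 6.15 to 6.53 in KO, 6.68 to 6.92 in KI and 6.41 to 7.21 in WT testes, with WT 6 at 6.41 and WT 4 at 6.602. The 19 markers of early meiotic prophase averaged 7.67 to 8.37 in KO, 8.43 to 8.76 in KI and 8.57 to 8.98 in WT testes.

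In KO testes some markers of other stages and cell types passed the test as well, where 2.34% of all genes fell and 2.52% rose. In KI testes none of any marker list did, as 0% of all genes passed there. Of the early meiotic markers 16 of 19 fell in KO testes (median -0.75), Syce3 and Majin among them, and of the later meiotic ones 5 of 19 (median -0.53), Mybl1, the transcription factor of pachytene spermatocytes, among them (-0.87). Of 15 markers of undifferentiated spermatogonia 4 rose and 1 fell (median 0.16), and of 12 of differentiating spermatogonia 1 fell (median -0.16). The 17 spermatid markers had 0 past the test (median -0.00), and 6 of them had a mean above the background limit. Of 13 Sertoli markers 2 rose (median 0.28), of 7 Leydig markers 1 rose (median 0.60), and of 8 peritubular markers 1 rose (median 0.21). Macrophage, endothelial and epididymis markers had 0 past the test (medians 0.07, 0.16 and 0.02). Against the KO littermates alone, 0 of the 19 early and 0 of the 19 later meiotic markers passed, where 0.00902% of all genes did. Their medians there were -0.79 and -0.46.

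The KO differences were then computed with the mean of the later meiotic markers of each array as a covariate, a fit added after the data had been seen. In that fit the KO difference of Prss50 was -0.64 (SE 0.18), that of Tex101 -0.45 (SE 0.17) and that of Ly6k -0.21 (SE 0.15). Adam2 (0.06, SE 0.26) and Adam3 (0.01, SE 0.30) were near 0, and Spink2 was positive (0.52, SE 0.13). None of the 6 passed in this fit (adjusted p = 0.473 to 0.997), in which 1 of all 22180 genes did. The covariate itself was lower in KO testes, so genotype and marker level are partly confounded in these arrays. The early meiotic marker mean was not tested as a covariate. Like Prss50, it was lower in every KO testis than in any KI or WT testis. Without WT 4 and WT 6, which were picked for their low marker level, the KO differences were by construction larger for most, at -2.94 for Adam2 (adjusted p = 0.00376) and -1.13 for Spink2 (adjusted p = 0.0109), while that of Prss50 was -0.79.

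**Figure D3:**
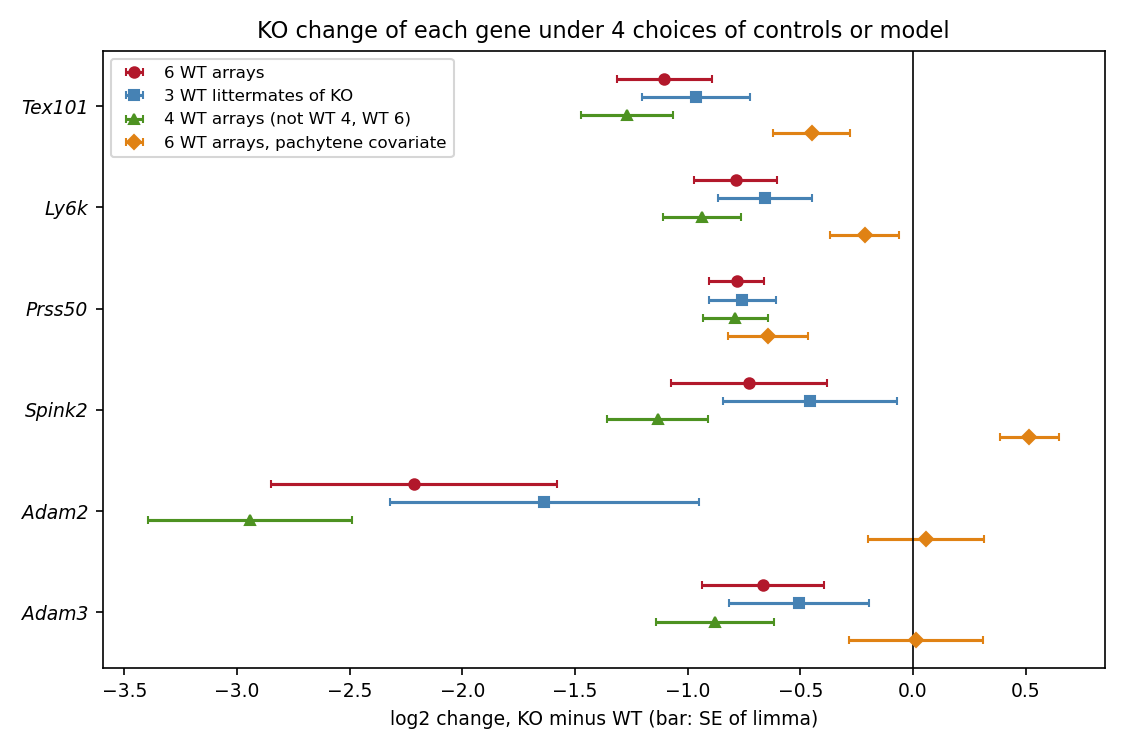
Log2 change in KO minus WT testes (x axis, with the SE from limma) for each gene (y axis) against all 6 WT arrays, against the 3 KO littermates, without WT 4 and WT 6, and with the later meiotic marker mean as a covariate. The 4 values of Prss50 lie between -0.79 and -0.64, while those of Adam2 run from -2.94 to 0.06. The early meiotic marker mean was not tested as a covariate.

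Relatives of these genes are counted here without the 6 genes themselves. In the LY6/uPAR family 21 of 40 measured relatives had a mean above the background limit. In KO testes 1 of the 40 fell and none rose, a share near the 2.34% of all genes that fell. The median was 0.05 against 0.04 for all genes. The relative that fell was Gml, a GPI-anchored family member, at 7.59 in KO, 9.13 in KI and 9.38 in WT testes (KO against WT -1.79, SE 0.45, adjusted p = 0.0429). The relatives Lypd10 (-2.07, adjusted p = 0.0524), Lypd11 (-1.63, 0.0548) and Lypd4 (-1.11, 0.0683), chosen after their values had been seen, did not pass, and the KO mean of Lypd10 (5.32) was under the background limit. Of 28 other serine protease genes 1 fell, likewise near the share of all genes, and this was Tmprss12 (-0.94, SE 0.21, adjusted p = 0.0353), a membrane protease of germ cells that is needed in the mouse for sperm to enter the oviduct. The median of these protease genes was -0.03, and 17 of the 28 had a mean above the background limit. The acrosomal protease gene Acr, chosen after its values had been seen, differed by -0.93 (adjusted p = 0.129).

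Of 17 testis ADAM genes other than Adam2 and Adam3 none passed in KO testes, and only 2 had a mean above the background limit. Their median difference was 0.06. Adam5 was at 5.08 in KO, 6.83 in KI and 6.80 in WT testes (KO against WT -1.72, SE 0.63, adjusted p = 0.117), and all 3 KO values, 4.87 to 5.19, were under the background limit. Of 14 ADAM genes not known as testis genes 2 rose, Adam19 (0.48, adjusted p = 0.0402) and Adam12 (0.43, adjusted p = 0.0489), and none fell. Over all genes 2.52% rose and 2.34% fell.

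The list of factors that act with TEX101 and LY6K in ADAM3 maturation held 17 measured genes besides Tex101, Ly6k, Adam2 and Adam3. In KO testes 4 of the 17 fell and 1 rose, against 2.34% and 2.52% of all genes, with a median of -0.02. The genes that fell were Clgn (-1.71, SE 0.40, adjusted p = 0.0365), which encodes the germ cell chaperone calmegin, Tmprss12, Calr (-0.38, SE 0.09, adjusted p = 0.036), which encodes the chaperone calreticulin, and Cmtm2b (-0.59, adjusted p = 0.0383), whose WT mean of 5.03 is under the background limit. Clgn and Cmtm2b are named here after their values had been seen. Clgn was at 7.80 in KO, 9.26 in KI and 9.51 in WT testes, with a WT range of 8.48 to 10.25. Ace, which encodes an enzyme known in the mouse to release TEX101 from the sperm surface, rose (0.46, SE 0.10, adjusted p = 0.032). Its somatic and testis forms were not separated here. In KI testes none of these 17 genes passed, as 0% of all genes did.

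**Figure D4:**
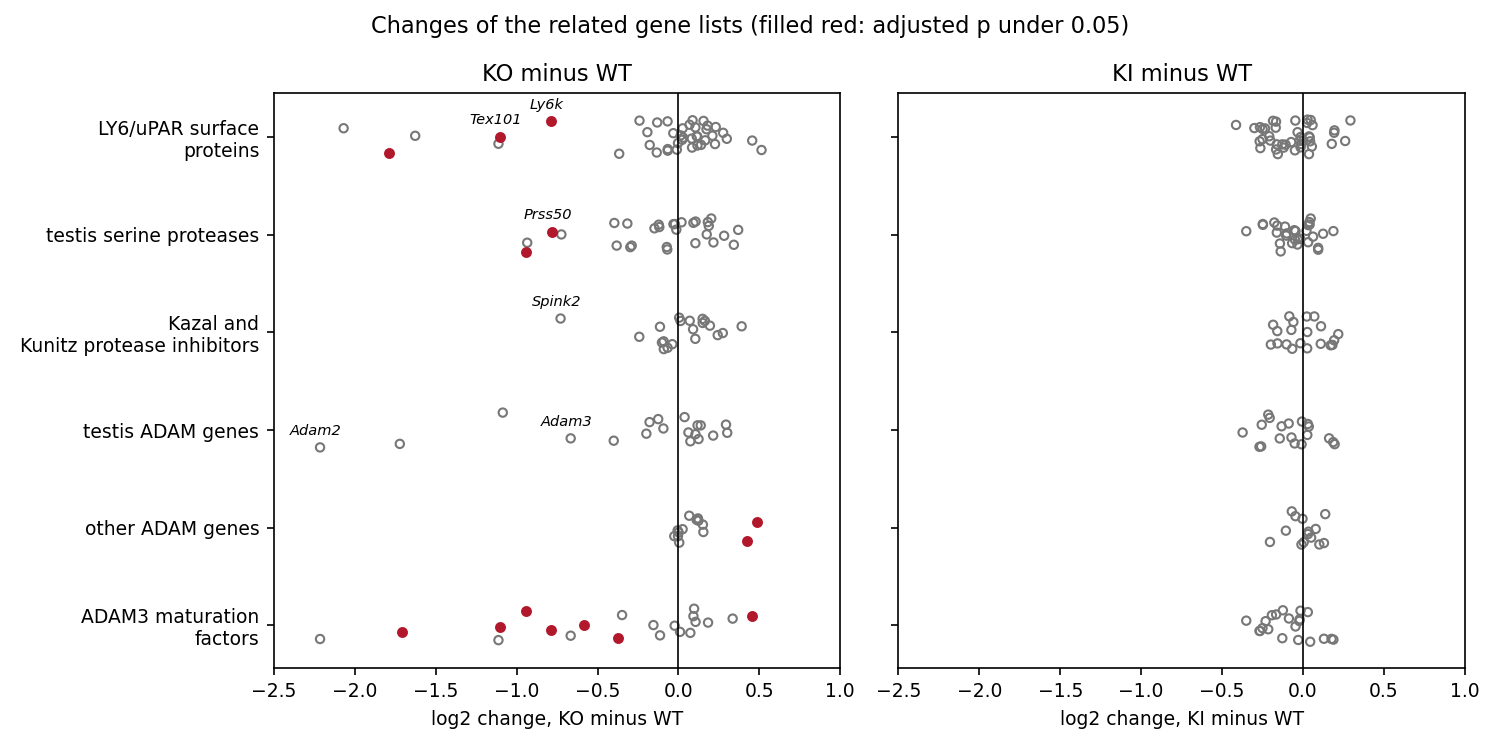
Log2 change (x axis) of the genes of 6 related lists (y axis) in KO minus WT testes on the left and KI minus WT testes on the right. Each point is 1 gene, filled red where the adjusted p was under 0.05. The 6 genes are included and labelled once. In KO testes 3 genes of the LY6/uPAR list and 6 of the ADAM3 maturation list are filled and lie below 0, Tex101 and Ly6k among both, and no point is filled in KI testes.

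The genes whose levels followed each member most closely over the 12 arrays were sought among 14557 genes above the background limit. These likenesses include the differences between genotypes, which the genes share, and are given with no test. Tex101 was closest to Sycp2 (Pearson r = 0.997), which encodes an axial element protein of meiotic chromosomes, then Strbp (r = 0.997) and the checkpoint kinase gene Atr (r = 0.992). Ly6k was closest to the demethylase gene Kdm4d (r = 0.993), 1700003G18Rik (r = 0.992) and Sox30 (r = 0.989), a SOX gene of late spermatogenesis. Adam2 was closest to Psma8 (r = 0.993), a proteasome subunit gene of spermatocytes, then Phf7 (r = 0.992) and Rnls (r = 0.991). Prss50 was closest to Phyhipl (r = 0.961), Hmmr (r = 0.956) and Rbm27 (r = 0.953). Spink2 was closest to Tmbim7 (r = 0.987) and Adam3 to Pibf1 (r = 0.955). No gene was among the 3 closest of over 1 member.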

How the data were processed

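The authors deposited a table of 41345 transcript clusters on 12 arrays whose log2 values run from 0.915 to 13.9. Per the submitters' processing notes the tools were RMA, Affymetrix Expression Console and Partek 6.6, with no role given for each. How background was corrected, and the annotation release, are not known here. RMA usually includes quantile normalisation, so a change is relative to the other genes of its array. Clusters were named from the platform annotation, with 1 symbol for 23521, several for 1814 and none for 16010, and only the first were used. Of the resulting 22180 genes, 21994 matched the GRCm38.p6 gene table by Entrez number.

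Genes were tested two-sided in R 4.3.3 by the lmFit and eBayes functions of limma 3.58.1, with all 12 arrays in 1 fit of 3 genotypes, or of 4 label groups for litter comparisons, and p-values were adjusted over 22180 genes (Benjamini-Hochberg, 0.05). No dim gene was removed. Tables used Python 3.11.15 and pandas 2.3.3, and plots matplotlib 3.10.9. The fits were also run on simulated data with independent noise for each gene and array. That run held no shifts shared by many genes of an array, so it does not measure the error rate here. The number of arrays limits the precision, and the median 95% interval reached 0.22 to either side of a change for either mutant against WT, 0.26 for KI against KO and for comparisons within litters, and 0.36 for the difference of the mutant effects. The labels call the replicates biological. Replicate numbers 1 to 3 recur across genotypes, but only 3 of 9 same-numbered pairs deviated together with a correlation above 0.1 (-0.03 to 0.16), so the arrays were not treated as paired.

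Members and gene lists were chosen with earlier results of these data known. From each of 18 lists the text names up to 4 members of smallest p in KO against WT that passed, or up to 2 of highest level, except where it says otherwise, and for each member up to 3 genes of highest Pearson r. Names given to single genes outside this rule were chosen after their values were seen. Promoters are from RefSeq (GRCm38.p6).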

Additional observations from a re-analysis of the deposited data

How the results depend on the processing

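The 3 KO calls rest on few arrays. With 1 array left out at a time, the number of genes past the test in KO against WT testes ran from 2 (without KO 3) to 2323 (without KO 2), and it was 1748 without WT 6. Over these fits the KO change ran from -1.39 to -0.88 for Tex101, -1.01 to -0.67 for Ly6k, -0.97 to -0.61 for Prss50, -2.80 to -1.74 for Adam2, -0.95 to -0.57 for Spink2 and -0.91 to -0.32 for Adam3. The KI difference from WT ran from -0.23 to 0.046 for Ly6k, -0.12 to 0.0055 for Prss50, -0.37 to 0.062 for Spink2 and -0.53 to 0.10 for Adam2. KI against KO had 0 to 721 genes past the test, with 0.62 to 1.13 for Tex101, 0.54 to 0.88 for Ly6k, 0.55 to 0.90 for Prss50 and 0.056 to 0.64 for Adam3. WT litters differed in 0 to 50 genes, and for Prss50 by -0.0083 to 0.094. The difference of the mutant effects ran from -0.51 to 0.42 for Spink2, -0.031 to 1.43 for Adam2 and -0.26 to 0.33 for Adam3, and for Spink2 it was -0.17 with array quality weights.

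Without dim genes 2200 genes passed in KO testes and 2 in KI against KO, and with an intensity trend 2166 and 3, with 2 between WT litters. Adam2 then passed at an unchanged -2.21 (adjusted p = 0.0346 and 0.029), and Adam3 has no value without dim genes. With both Ly6k clusters averaged its change was -0.32. Against KO littermates alone 2 genes passed, and Tex101 (-0.96), Ly6k (-0.65) and Prss50 (-0.76) did not. The pairing check did not warrant a block. With replicate number as a block, WT 4 to WT 6 carry no information, since their numbers occur in no other group, so that fit compares the mutants with WT 1 to WT 3. In it Spink2 (-1.001) and Adam2 (-2.79) also passed, with 1468 genes in KO against WT and 247 in KI against KO. Without the block, the fit of KO, KI and WT 1 to WT 3 alone gave the same changes, and Spink2 (adjusted p = 0.0294) and Adam2 (0.0145) passed there too, with 1578 genes in KO against WT and 0 in KI against KO.

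This fit and the following ones were chosen after seeing the data. Without WT 4 and WT 6 together 2547 genes passed, with Spink2 (-1.13) and Adam2 (-2.94) among them. With the later meiotic marker mean as a covariate 1 gene passed in KO against WT and 1 in KI against KO. The KO changes were then -0.45 for Tex101, -0.21 for Ly6k, -0.64 for Prss50, 0.52 for Spink2, 0.058 for Adam2 and 0.015 for Adam3. The KI differences from WT were 0.067 for Spink2 and 0.19 for Adam2, and those from KO were -0.45 for Spink2 and -0.16 for Adam3. The cause of these shifts was not tested. Signal near background limits Adam3 in all groups, Adam2 in KO 1 and KO 3, and Spink2 in KO 1, KO 3, KI 1, WT 4 and WT 6.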

Other observations

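Genes that make or release the GPI anchor, through which TEX101 and LY6K are held at the membrane, were also measured. Of 26, 2 rose in KO testes and none fell, against 2.52% and 2.34% of all genes, with a median of -0.02 against 0.04 for all genes. These were Ace and Gpld1, a phospholipase that cleaves the anchor, at 6.88 in KO and 6.53 in WT testes (0.35, SE 0.09, adjusted p = 0.0466). The list mean lay between 7.81 and 7.88 in KO, 7.82 and 7.85 in KI and 7.78 and 7.88 in WT testes. In KI testes none passed, as 0% of all genes did.

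Protease inhibitors of the Kazal and Kunitz families other than Spink2 had 0 of 19 genes past the test in KO testes, where 4.86% of all genes passed. Their median was 0.07, and 5 of them had a mean above the background limit. Eppin, a protease inhibitor known from the epididymis and testis, was at 11.31 in KO, 11.06 in KI and 11.12 in WT testes (KO against WT 0.19, adjusted p = 0.202). Spint2, a Kunitz inhibitor of membrane proteases, was at 9.37 in KO, 9.42 in KI and 9.44 in WT testes (KO against WT -0.07, adjusted p = 0.543).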
